A study of Mus musculus with 32 samples.

Results

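Liver was taken from male C57BL/6 mice in which Bcl6, a zinc-finger transcriptional repressor, was targeted in adipocytes and not in the liver itself. The 4 AKO (adipocyte knockout) mice had the genotype Bcl6 fl/fl;Adipoq-Cre, with Cre recombinase driven by the promoter of the adipocyte gene Adipoq, and the 4 WT mice had the genotype Bcl6 fl/fl without Cre. Both groups therefore carried loxP-flanked Bcl6 alleles, no group carried Cre alone, and what Bcl6 deletion did and what Cre or its transgene did cannot be told apart. The labels used here give no age, diet or fasting state. The 8 liver libraries belong to a series of 32 samples that also holds inguinal and perigonadal fat, and by their animal numbers the liver mice were others than the fat mice. The members described here are all distinct genes of the liver tables. The authors listed 37 genes at an adjusted p under 0.05, of 2508 genes listed in any tissue, and 34 of the 37 have counts per library. Paqr7, Plin2 and Slc6a9 were listed without counts.

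The liver takes up fatty acids released by fat, oxidizes them in mitochondria and peroxisomes, builds them into triglycerides and secretes most plasma proteins. The nuclear receptor PPARA switches on many liver genes of fatty acid oxidation and lipid droplets when fatty acid supply is high. BCL6 represses transcription, and in liver itself it is known from mouse work to oppose PPARA and to hold down genes expressed more in females.

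Only called genes are held for liver, so counts of the members carry no measure of how the other genes behaved. The authors' list amounts to 0.321% of an estimated 11512 genes tested, 0.0782% higher in AKO and 0.243% lower. The counts in the 34 genes ran from 167732 to 253003 per AKO library and from 97314 to 358660 per WT library, which are sums over this table and say nothing of full depth. Size factors solved from the authors' means were 1.15, 0.859, 0.916 and 1.49 in AKO libraries 1 to 4, against 0.742, 2.20, 0.603 and 0.784 in WT libraries 1 to 4. WT library 2 had the largest size factor, and the groups overlapped (two-sided exact permutation test, p = 0.971). The overlap came from WT library 2 alone, since every AKO value exceeded the other 3 WT values (difference 0.393 without it, exact permutation p = 0.0571, the smallest that 4 against 3 libraries allow). None of the 12 hepatocyte markers looked for was among the 37 genes, so tissue identity could not be checked with them. One description label of AKO replicate 4 names WT perigonadal fat, while its title, tissue and genotype say AKO liver. The kininogen gene Kng1 had 66925 normalized counts in that library, and the other 7 liver libraries ran from 39546 to 83851. With that library left out, all 34 genes with counts kept the direction of their fold, a direction for which the genes had been chosen with that library included.

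In AKO livers 9 genes were higher and 28 lower than in WT livers. The higher ones were led by Wdr52, Zfp949, Kng1 and Id2, and the lower ones by Cyp2a22, Clstn3, Aqp4 and Pparg. The words rose and fell below refer to the authors' adjusted p, which rests on all genes they tested, and folds come from an edgeR fit wherever counts were held. An edgeR quasi-likelihood test called all 34 genes when adjusted over the table, which is 100% of genes that were deposited because they had been called, and therefore no independent evidence. Adjusted as if over the estimated 11512 genes tested it called 3, namely Id2, Kng1 and Wdr52 (edgeR adjusted p = 0.034 for each), all of them higher in AKO. They make up 0.0261% of that number, which is no call rate, since edgeR was run on the 34 genes only. The adjustment takes every other gene to have a larger p. DESeq2's test with the same adjustment, added after seeing the data, called 23 genes, 8 higher and 15 lower. AKO and WT libraries did not overlap for any of the 34 genes, which the choice of genes favours. The change was at least 1.5-fold for 6 of the 9 genes that were higher and 10 of the 25 with counts that were lower. The median log2 fold change over the 34 genes was -0.36. In whole liver, fewer cells of a type and less RNA per cell cannot be told apart.

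**Figure D1:**
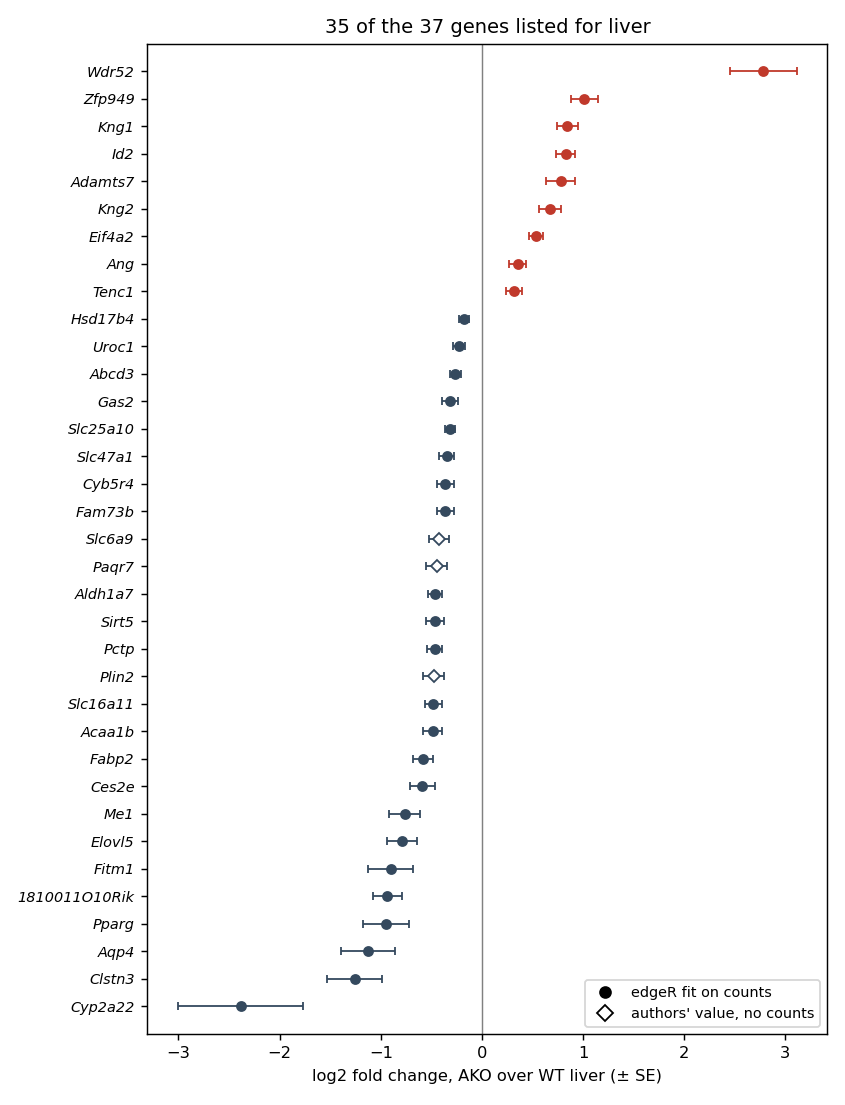
Log2 fold change of AKO over WT liver, with its standard error, for 35 of the 37 listed genes; filled points are edgeR fits to 4 AKO and 4 WT libraries and open diamonds are the authors' values for genes without counts. Wdr52 at 2.78 and Cyp2a22 at -2.38 mark the ends, 9 plotted genes lie above 0 and 26 below. With TMM scaling Abcd3, Gas2, Hsd17b4, Slc25a10 and Uroc1 cross to the other side of 0. That scaling was computed over the 34 genes chosen as changed and moves the median fold up by 0.32 on the log2 scale.

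Of the 28 lower genes 9 stood in the lists used here for fatty acids and their storage. These lists were chosen with earlier results of these data known. The count includes the nuclear receptor gene Pparg and leaves out Abcd3 and Pctp, which stood in none of the lists. Of 41 genes listed here for fatty acid oxidation and PPARA targets 4 were among the 37. Of 31 lipid droplet and uptake genes 3 were, and of 38 genes of fatty acid and triglyceride synthesis 2. Over all of the estimated 11512 genes tested the share listed was 0.321%, and no excess in the lists was tested. All 9 were lower in AKO livers by the authors' size factors. TMM scaling, computed over the 34 genes chosen as changed, turned the sign of some oxidation genes, Hsd17b4 among them. The median log2 fold change was -0.39 for the oxidation list, whose members ran from -0.95 to -0.17, and -0.36 over all 34 genes with counts. It was -0.74 for the 2 droplet and uptake genes with counts and -0.78 for the 2 synthesis genes. Most genes of these lists were not called by the authors, and values of uncalled genes were not analysed here.

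Plin2 encodes the perilipin that coats lipid droplets in hepatocytes. In the authors' deposited table it had a mean of 4480 normalized counts over the 8 libraries and a log2 fold of -0.48 ± 0.10 (SE), with an adjusted p of 0.00264. Fitm1, whose product helps to partition triglyceride into lipid droplets, had 181, 193, 122 and 91.9 normalized counts in AKO livers, against 275, 223, 302 and 300 in WT livers. AKO libraries 3 and 4 were the lowest, and the highest AKO library lay under the lowest WT library. Fitm1 fell 1.87-fold (log2 fold -0.90 ± 0.22 SE, and adjusted p = 0.0243 in the authors' deposited table). Without the fourth replicates of both groups its log2 fold was -0.66. Fabp2, which encodes the fatty acid binding protein of the intestine, had 640, 633, 848 and 747 normalized counts in AKO livers, against 1156, 983, 1065 and 1102 in WT livers. It fell 1.5-fold with groups apart (log2 fold -0.58 ± 0.10 SE, and -0.59 without the fourth replicates). Fabp2 was the 1 of 12 markers of pancreas or gut epithelium in the table, the other 11 were not listed, and a part of such cells in the result was not tested.

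Peroxisomes shorten long fatty acids by beta-oxidation, and Abcd3, Hsd17b4 and Acaa1b among the lower genes belong to that route. This grouping was made after their values were seen. Abcd3 encodes a transporter of the peroxisomal membrane that brings fatty acyl-CoA in, Hsd17b4 the bifunctional enzyme of the middle steps and Acaa1b a thiolase of the last step. Acaa1b had 10817, 12018, 12687 and 9832 normalized counts in AKO livers, against 13912, 16814, 16112 and 16641 in WT livers, with WT library 1 nearest to the AKO range. Abcd3 had 9751, 8973, 9092 and 9248 normalized counts in AKO livers, against 10788, 11112, 10876 and 11704 in WT livers. Hsd17b4 had 7143, 6947, 6731 and 6701 normalized counts in AKO livers, against 7983, 7704, 7538 and 7809 in WT livers. The groups did not overlap for either gene.

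Acaa1b fell 1.40-fold, Abcd3 1.2-fold and Hsd17b4 1.13-fold. But with TMM scaling or with DESeq2 size factors computed over the 34 genes, Abcd3 and Hsd17b4 were higher in AKO, at log2 folds from 0.06 to 0.15. With both scalings Hsd17b4 was called higher (edgeR adjusted p = 0.0168 and 0.0407), and Abcd3 was not called. Those scalings set genes chosen as changed level between libraries, and they moved the median fold of the table by 0.32 on the log2 scale. Relative to the median of the table, Acaa1b was lower and Abcd3 and Hsd17b4 were higher, so the direction of Abcd3 and Hsd17b4 depends on the scaling. With the table's total as library size, also a sum over chosen genes, Abcd3 was lower at -0.37 and Hsd17b4 at -0.28. Hsd17b4 had the smallest change of the 34 genes (log2 fold -0.17 ± 0.05 SE). Acaa1b has a close paralog in Acaa1a, and reads could be split between them.

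Synthesis was represented by Elovl5, which lengthens polyunsaturated fatty acids, and Me1, the cytosolic malic enzyme that supplies NADPH for lipid synthesis. Elovl5 had 1789, 1763, 2661 and 2454 normalized counts in AKO livers, against 3399, 3334, 3963 and 4329 in WT livers. Each group split into a lower pair (libraries 1 and 2) and a higher pair (libraries 3 and 4), without overlap between the groups. Me1 had 2823, 2307, 3162 and 2022 normalized counts in AKO livers, against 4170, 3530, 4859 and 4977 in WT livers. Its libraries did not overlap either. Elovl5 fell 1.73-fold (log2 fold -0.79 ± 0.15 SE) and Me1 1.70-fold (-0.77 ± 0.15 SE), with adjusted p of 0.00105 and 0.00311 in the authors' deposited table. Without the fourth replicates the log2 fold was -0.78 for Elovl5 and -0.60 for Me1.

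Pparg, the nuclear receptor that drives adipocyte differentiation and lipid storage, stood in the oxidation list as a PPAR and was also the 1 of 11 adipocyte markers in the table. It had 112, 169, 102 and 84.5 normalized counts in AKO livers, against 174, 198, 230 and 289 in WT livers. AKO library 2 came close to WT library 1, and AKO library 4 was the lowest of all. Pparg fell 1.93-fold (log2 fold -0.95 ± 0.23 SE, and adjusted p = 0.0144 in the authors' deposited table). Without the fourth replicates its log2 fold was -0.66. The other 10 adipocyte markers, Adipoq among them, were not listed for liver, and a part of fat cells in the result was not tested.

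Other lower genes act in mitochondria and in lipid transport. Pctp, which carries phosphatidylcholine between membranes, had 1330, 1373, 1401 and 1368 normalized counts in AKO livers, against 1686, 2132, 1806 and 1936 in WT livers. The AKO libraries lay within a narrow band and all WT libraries above it, and Pctp fell 1.38-fold. Sirt5, a mitochondrial deacylase that removes succinyl groups, had 174, 172, 167 and 185 normalized counts in AKO livers, against 252, 235, 222 and 256 in WT livers, a 1.38-fold fall. Slc25a10, the mitochondrial dicarboxylate carrier, averaged 3451 ± 123 normalized counts in AKO livers and 4294 ± 134 in WT livers (SD, n = 4 each), 1.24-fold lower by the authors' size factors and level between groups with TMM scaling (log2 fold 0.00). Fam73b (annotated as Miga2), an outer mitochondrial membrane gene, fell 1.29-fold, and with TMM scaling its log2 fold was -0.04 and not called. Slc16a11, a monocarboxylate transporter of hepatocytes, had 203, 237, 206 and 200 normalized counts in AKO livers, against 288, 297, 294 and 300 in WT livers. Its WT libraries lay close together, and AKO library 2 stood above the other AKO libraries. With TMM scaling Acaa1b, Fabp2, Pctp, Sirt5, Slc16a11, Ces2e and Aldh1a7 had log2 folds from -0.26 to -0.14 and were not called. TMM scaling was computed over the 34 genes chosen as changed, and it moved the median fold up by 0.32 on the log2 scale.

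**Figure D2:**
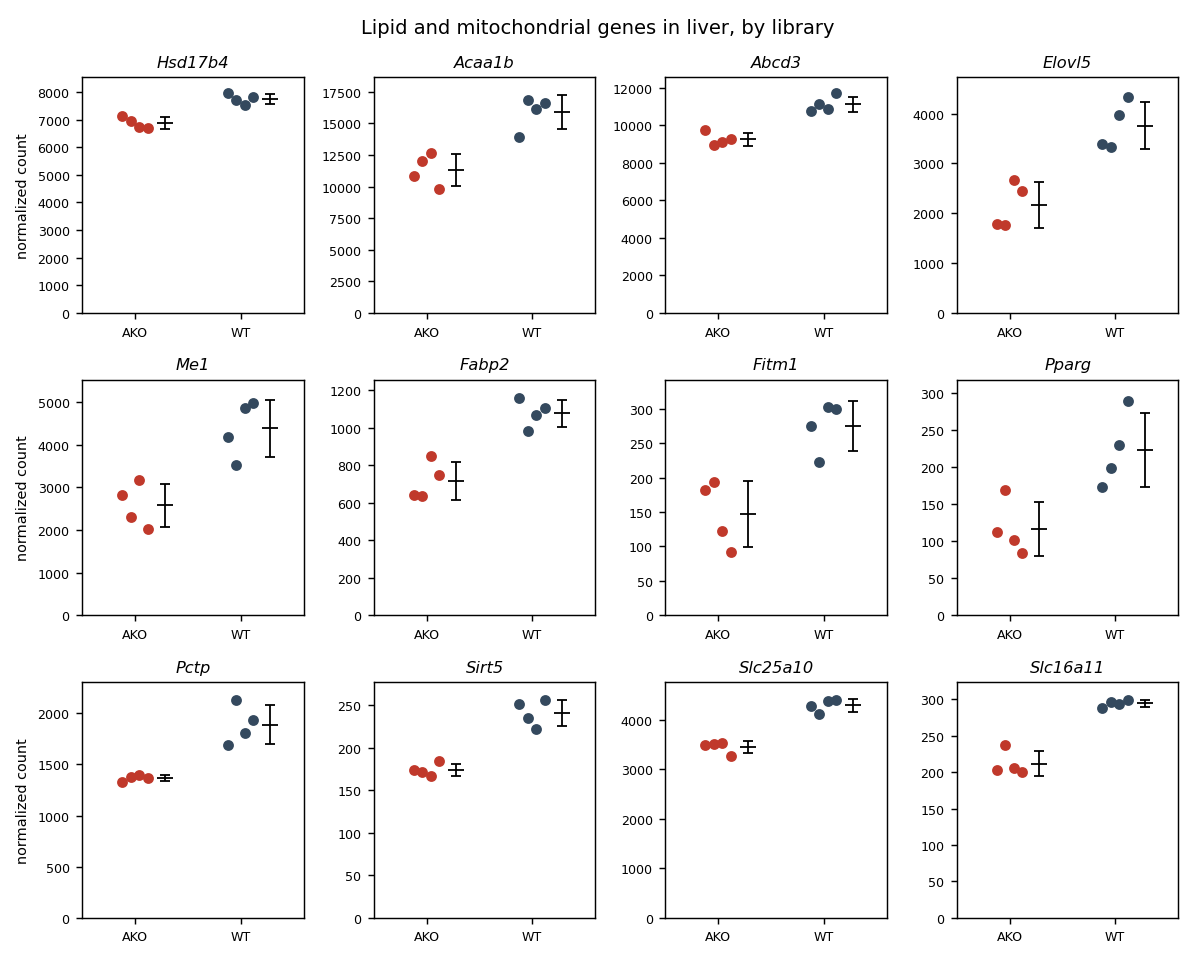
Normalized counts (reads divided by the authors' size factor) of 12 lipid and mitochondrial genes in each of 4 AKO (red) and 4 WT (blue) livers, with the group mean and SD in black. All AKO points lie under all WT points in each panel, from a 1.93-fold difference for Pparg to 1.13-fold for Hsd17b4. With TMM scaling, computed over genes chosen as changed, Hsd17b4, Abcd3 and Slc25a10 change sign.

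Promoters of 4 lower genes of lipid handling are shown because PPARs and related nuclear receptors bind DNA through the half-site AGGTCA, so that the reader can see where these letters fall near the starts. Each runs 5′ to 3′ on the gene's own strand from 250 bases before to 50 after the RefSeq start (GRCm38.p6), and capitals mark AGGTCA or its reverse complement TGACCT. The windows are Plin2 at chr4:86670010-86670309 (minus strand), Pctp at chr11:90002845-90003144 (minus strand), Acaa1b at chr9:119157044-119157343 (minus strand) and Fabp2 at chr3:122894822-122895121 (plus strand).
Plin2: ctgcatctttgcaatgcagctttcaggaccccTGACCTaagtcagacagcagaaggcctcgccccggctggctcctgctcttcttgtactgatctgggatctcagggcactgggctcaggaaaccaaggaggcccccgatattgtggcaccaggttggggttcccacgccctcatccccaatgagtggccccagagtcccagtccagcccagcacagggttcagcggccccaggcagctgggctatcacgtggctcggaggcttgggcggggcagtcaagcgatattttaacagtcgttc
Pctp: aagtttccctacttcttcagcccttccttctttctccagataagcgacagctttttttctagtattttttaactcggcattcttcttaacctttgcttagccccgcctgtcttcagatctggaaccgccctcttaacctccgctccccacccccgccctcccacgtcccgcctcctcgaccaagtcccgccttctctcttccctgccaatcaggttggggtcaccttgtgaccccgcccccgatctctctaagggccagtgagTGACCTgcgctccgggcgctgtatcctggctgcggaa
Acaa1b: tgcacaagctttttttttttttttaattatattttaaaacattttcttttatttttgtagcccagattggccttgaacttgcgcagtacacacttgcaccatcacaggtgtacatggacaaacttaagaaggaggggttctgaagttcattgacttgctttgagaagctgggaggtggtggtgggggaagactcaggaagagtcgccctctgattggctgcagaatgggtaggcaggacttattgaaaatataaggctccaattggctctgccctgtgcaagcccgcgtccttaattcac
Fabp2: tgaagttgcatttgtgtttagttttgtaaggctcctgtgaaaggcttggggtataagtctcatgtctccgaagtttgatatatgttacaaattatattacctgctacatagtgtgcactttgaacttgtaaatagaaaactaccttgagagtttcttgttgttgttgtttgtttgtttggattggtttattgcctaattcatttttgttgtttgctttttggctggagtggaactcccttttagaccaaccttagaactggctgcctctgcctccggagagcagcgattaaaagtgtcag
The Plin2 window holds the half-site at -218 and the Pctp window at 14 relative to the start, while the Acaa1b and Fabp2 windows hold none.

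Of the 37 genes 29 matched the promoter table. The half-site stood on either strand in 6 of the 29 windows (20.7%), against 18.1% of 27025 genes in the table. It was found in 5 of 22 lower genes (Pctp, Plin2, Pparg, Sirt5 and Uroc1) and in 1 of 7 higher genes (Kng2). A share so near that of all promoters is not a result about the liver genes. The direct repeat AGGNCANAGGNCA, searched on both strands and containing the looser half-site AGGNCA at each end, stood in 0 of the 29 windows and in 0.451% of all genes. Matches describe letters in these windows only.

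The largest falls were in weakly read genes. Cyp2a22, a cytochrome P450 gene expressed more in livers of female mice, had 2.62, 4.66, 14.2 and 6.04 normalized counts in AKO livers, against 52.5, 15.4, 53.1 and 37 in WT livers. AKO library 3 and WT library 2 nearly met. In raw reads the AKO libraries held 3, 4, 13 and 9 and the WT libraries 39, 34, 32 and 29. Cyp2a22 fell 5.22-fold in the edgeR fit (log2 fold -2.38 ± 0.62 SE), while the authors' deposited table gives a log2 fold of -1.06 ± 0.23. It was the 1 of 61 female-biased genes looked for that was listed, and none of 48 male-biased genes was. Over all genes tested the share listed was 0.321%. Reads of Cyp2a22 can be shared with related Cyp2a genes.

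Clstn3, a cadherin-family membrane protein gene, had 68.0, 50.05, 33.8 and 37.6 normalized counts in AKO livers, against 102, 82.6, 161 and 124 in WT livers. It fell 2.39-fold with the highest AKO library under the lowest WT library. Aqp4, a water channel gene, had 34.9, 23.3, 18.6 and 30.9 normalized counts in AKO livers, against 83.5, 58.6, 46.4 and 52.3 in WT livers. It fell 2.18-fold. The gene 1810011O10Rik, annotated as Tcim, had 286, 289, 418 and 315 normalized counts in AKO livers, against 741, 615, 544 and 593 in WT livers, and fell 1.91-fold.

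Of 55 xenobiotic enzyme genes looked for, 2 were listed, both lower, against 0.321% of all genes tested. Ces2e, a carboxylesterase gene, had 3037, 2657, 2671 and 2530 normalized counts in AKO livers, against 4637, 3211, 3811 and 4741 in WT livers. WT library 2 was nearest to the AKO libraries, and Ces2e fell 1.5-fold. Aldh1a7, an aldehyde dehydrogenase gene, had 2921, 2725, 2651 and 2516 normalized counts in AKO livers, against 3360, 3707, 3759 and 4087 in WT livers, and fell 1.38-fold. Both have close paralogs (Aldh1a1 for Aldh1a7) with which reads could be shared. The transporter gene Slc47a1, which exports organic cations into bile and urine, fell 1.27-fold, and Cyb5r4, a cytochrome b5 reductase gene, 1.28-fold. With TMM scaling, which sets genes chosen as changed level between libraries, neither was called, at log2 folds of -0.03 for Slc47a1 and -0.04 for Cyb5r4. Gas2 and Uroc1, the gene of urocanase in histidine breakdown, were 1.24-fold and 1.17-fold lower, both of them changing sign with TMM scaling (log2 folds of 0.01 and 0.09). The authors' deposited table gives a log2 fold of -0.45 ± 0.10 for the membrane progestin receptor gene Paqr7 and -0.42 ± 0.10 for the glycine transporter gene Slc6a9.

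Genes of several other liver functions were looked for and not listed. They were growth hormone signalling (0 of 17), cholesterol synthesis (0 of 27), bile acid, sterol and lipoprotein handling (0 of 37), gluconeogenesis, glycogen and insulin signalling (0 of 33), amino acid and one-carbon metabolism (0 of 36), acute phase and inflammation (0 of 37) and interferon and antigen presentation (0 of 37). The clock list (0 of 20), the cell cycle and p53 list (0 of 30) and the stress list (0 of 26) had none either. Markers of cholangiocytes, Kupffer cells, liver endothelium, stellate cells, lymphoid cells, erythroid, granulocyte or mast cells and muscle were not listed. Of the 37 genes 12 stood in any of the 26 lists and 25 in none. With 0.321% of all genes tested listed, most lists of 17 to 37 genes would hold none in any case. A gene that was not listed is not shown to be unchanged.

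All 9 genes that rose stood outside the 26 lists. Kng1 and Kng2 encode kininogens, which the liver secretes into plasma as precursors of bradykinin and which also inhibit cysteine proteases. Kng1, with the highest counts of the table, had 59466, 83851, 78750 and 66925 normalized counts in AKO livers, against 39994, 40580, 40760 and 39546 in WT livers. The WT libraries were nearly equal, the AKO libraries were spread, and AKO library 1 was the lowest of them. Kng1 rose 1.80-fold (log2 fold 0.84 ± 0.10 SE, and adjusted p = 5.23e-12 in the authors' deposited table). The coefficient of variation of Kng1 was 15.3% in AKO and 1.38% in WT livers, whereas over the 34 genes its median was 8.59% in AKO and 8.42% in WT.

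Kng2 had 6316, 9098, 8458 and 7680 normalized counts in AKO livers, against 5590, 4730, 4753 and 4741 in WT livers. AKO libraries kept the order of Kng1, with library 2 highest and library 1 lowest, and WT library 1 stood apart above the other WT libraries. Kng2 rose 1.59-fold (log2 fold 0.67 ± 0.11 SE). The ratio of Kng1 to Kng2 counts was 9.42, 9.22, 9.31 and 8.71 in AKO livers, against 7.15, 8.58, 8.58 and 8.34 in WT livers. AKO library 4 came close to WT libraries 2 and 3. These kininogen genes are near copies of each other, so reads may have been split between them, and the separate values are uncertain.

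Wdr52 (annotated as Cfap44), a gene of cilia and sperm flagella, had 127, 108, 97.1 and 178 normalized counts in AKO livers, against 16.2, 22.2, 28.2 and 6.38 in WT livers. Every AKO library had more than any WT library, and WT library 4 was the lowest with 5 raw reads. Wdr52 rose 6.88-fold in the edgeR fit (log2 fold 2.78 ± 0.33 SE), while the authors' deposited table has a log2 fold of 1.90 ± 0.22. Zfp949, a zinc-finger protein gene, had 215, 216, 275 and 213 normalized counts in AKO livers, against 105, 129, 118 and 96.9 in WT livers. It rose 2.02-fold with the groups far apart (log2 fold 1.01 ± 0.13 SE). Id2, which encodes a helix-loop-helix protein that blocks DNA binding by its partners, had 1655, 1650, 1503 and 1616 normalized counts in AKO livers, against 1053, 796, 957 and 819 in WT livers. It rose 1.78-fold (log2 fold 0.83 ± 0.09 SE), and its AKO libraries lay closer together than its WT libraries.

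Adamts7, a secreted metalloproteinase gene, had 261, 229, 250 and 174 normalized counts in AKO livers, against 137, 125, 146 and 126 in WT livers. AKO library 4 was the lowest AKO library and still above every WT library, and Adamts7 rose 1.72-fold. Eif4a2, an RNA helicase gene of translation initiation, had 5000, 5403, 5975 and 5714 normalized counts in AKO livers, against 3971, 3710, 3504 and 4065 in WT livers. It rose 1.45-fold (log2 fold 0.53 ± 0.07 SE). Ang, the gene of the ribonuclease angiogenin, had 3425, 4217, 4084 and 3814 normalized counts in AKO livers, against 3304, 2936, 3149 and 2785 in WT livers. AKO library 1 nearly met WT library 1, and Ang rose 1.28-fold. Tenc1 (annotated as Tns2), a tensin of cell adhesion sites, had 1502, 1589, 1393 and 1643 normalized counts in AKO livers, against 1211, 1182, 1141 and 1386 in WT livers. AKO library 3 and WT library 4 nearly touched, and Tenc1 rose 1.25-fold. Ang overlaps Rnase4 on the same strand over 10860 bases, and Adamts7 overlaps Tbc1d2b on the other strand over 6045 bases, so reads of these genes may be shared with their neighbours.

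**Figure D3:**
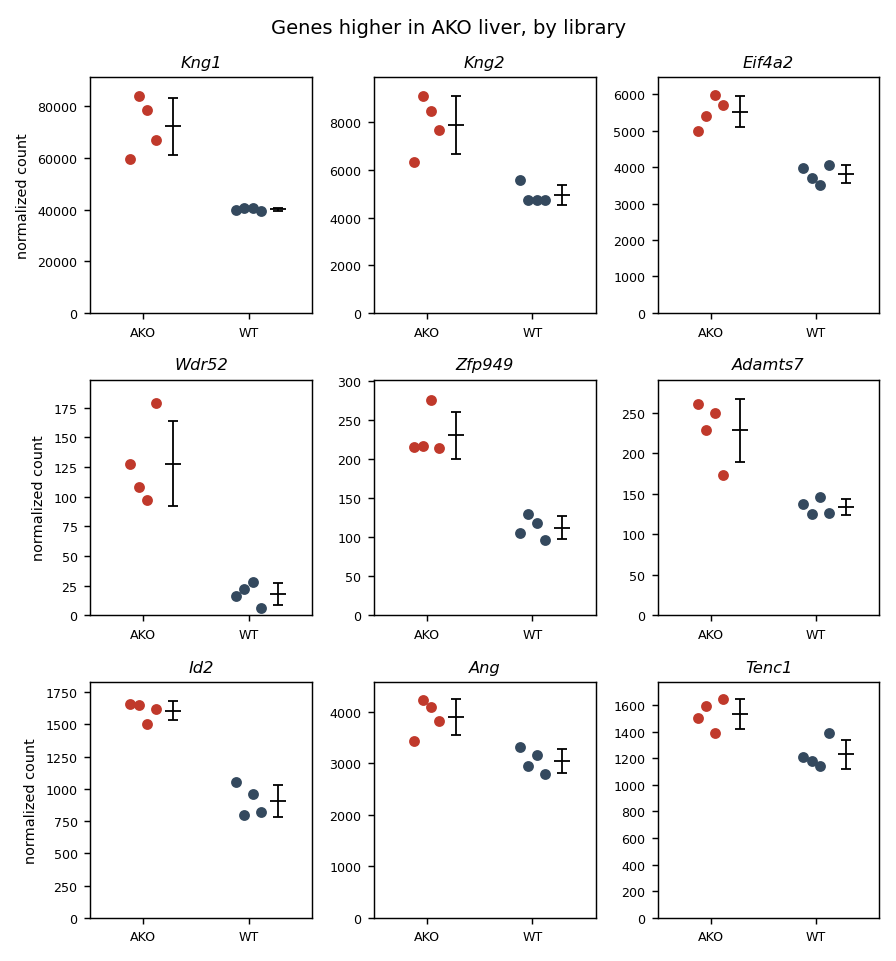
Normalized counts (reads divided by the authors' size factor) of the 9 genes higher in AKO liver, in each of 4 AKO (red) and 4 WT (blue) livers, with the group mean and SD in black. Kng1 spreads from 59466 to 83851 in AKO and between 39546 and 40760 in WT, and the groups come closest for Tenc1 and Ang.

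Of the 9 higher genes 3 are neighbours on chromosome 16 (GRCm38, GENCODE M21). Kng2 (22985854 to 23029482, minus strand), Kng1 (23057865 to 23082078, plus strand) and Eif4a2 (23107444 to 23114136, plus strand) lie in this order before Adipoq (23146536 to 23158028, plus strand), the gene whose promoter drives Cre. The near end of Eif4a2 lies 32.4 kb before the start of Adipoq, that of Kng1 64.46 kb and that of Kng2 117.1 kb before it. The span of 0.1722 Mb from Kng2 through Adipoq holds 5 protein-coding genes, and 3 of them were higher in AKO livers. The other two were Rfc4 and Adipoq, neither of which was listed for liver. The end of Eif4a2 overlaps Rfc4 on the other strand by 194 bases. The near end of Bcl6 (minus strand) lies 0.807 Mb beyond Adipoq. Bcl6 was not listed for liver and is by design not deleted there, so the liver tables hold no check of the knockout. Wdr52 (44394796 to 44482428) is on the same chromosome, 21.24 Mb beyond Adipoq.

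Chromosome 16 held 4 of the 37 genes (10.8%), against 3.02% of protein-coding genes, and all 4 rose. AKO and WT mice differ by the transgene, whose place in the genome the sources used here do not give. An effect of genome segments that came with it cannot be told apart from an effect of Bcl6 loss. The promoters of Kng2 and Eif4a2 are shown because these genes flank Kng1 next to the gene that drives Cre. Kng2 is at chr16:23029052-23029351 (minus strand) and Eif4a2 at chr16:23107218-23107517 (plus strand) in RefSeq GRCm38.p6, read and marked as above.
Kng2: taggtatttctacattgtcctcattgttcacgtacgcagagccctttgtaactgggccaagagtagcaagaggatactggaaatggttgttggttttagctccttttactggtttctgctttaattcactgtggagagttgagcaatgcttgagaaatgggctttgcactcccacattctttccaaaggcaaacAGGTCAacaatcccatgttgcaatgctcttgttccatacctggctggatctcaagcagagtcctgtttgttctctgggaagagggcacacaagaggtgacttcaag
Eif4a2: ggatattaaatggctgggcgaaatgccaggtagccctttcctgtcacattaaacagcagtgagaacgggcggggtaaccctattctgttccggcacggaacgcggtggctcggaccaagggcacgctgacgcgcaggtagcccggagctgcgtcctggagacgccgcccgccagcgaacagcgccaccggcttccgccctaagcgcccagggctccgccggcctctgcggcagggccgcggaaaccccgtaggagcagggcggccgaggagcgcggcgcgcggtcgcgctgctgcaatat
The Kng2 window holds the half-site at -56 relative to the start, and the Eif4a2 window holds none.

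Chromosome 9 held 6 of the 37 genes (16.2%), against 5.51% of protein-coding genes. Me1, Cyb5r4, Zfp949 and Adamts7 lie within 3.627 Mb (86581371 to 90208071), a span of 29 protein-coding genes. Me1 and Cyb5r4 fell, and Zfp949 and Adamts7 rose. Elovl5 and Acaa1b lie farther off on the same chromosome, and both fell. Chromosome 11 held 5 of the 37 genes (13.5%), against 7.47% of protein-coding genes. All 5 were lower by the authors' size factors, as were 28 of the 37 genes. Pctp, Slc16a11, Slc25a10 and Slc47a1 were among the 5, of which Slc25a10 changed sign under TMM scaling. The positions were looked at after the genes were known and were not tested.

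**Figure D4:**
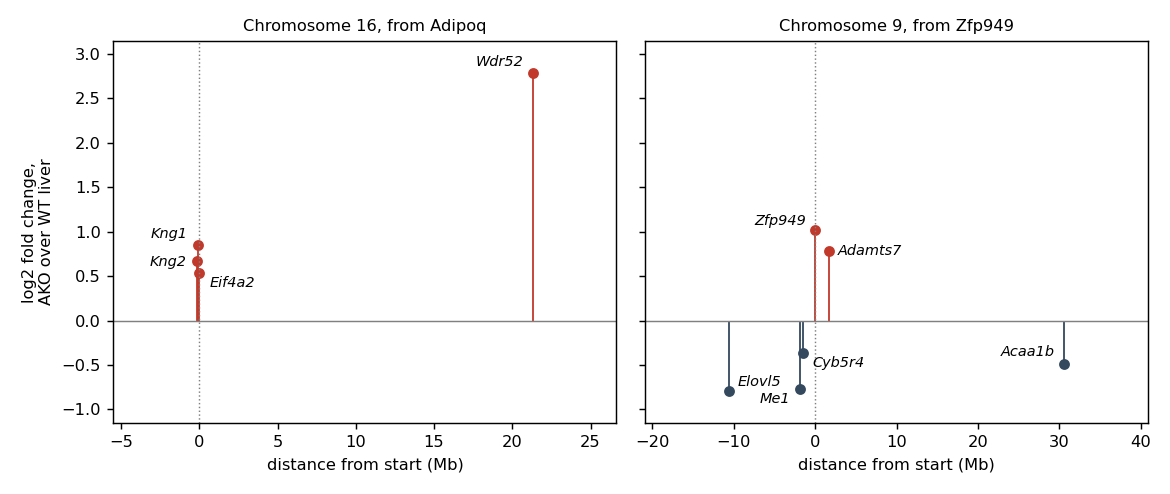
Log2 fold change of AKO over WT liver against distance in Mb from the start of Adipoq (left, chromosome 16) and of Zfp949 (right, chromosome 9) for the listed genes on each chromosome. Kng1, Kng2 and Eif4a2 stand within 0.1722 Mb beside Adipoq with Wdr52 21.24 Mb away, and on chromosome 9 higher and lower genes stand side by side.

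The liver genes were then compared with those of fat from AKO and WT mice, the tissue that holds the targeted adipocytes. Far fewer genes were listed for liver, since 8.56% of genes tested were listed for male inguinal fat, 5.83% for female inguinal fat and 11.1% for male perigonadal fat. Of the 37 liver genes 9 (24.3%) were also listed for at least 1 fat tissue and 28 (75.7%) for none, Wdr52, Id2, Kng1, Kng2 and Pparg among them. Male inguinal fat shared 4 genes (10.8% of the liver list, 0.372% of the fat list), female inguinal fat 5 (13.5% and 0.633%) and perigonadal fat 7 (18.9% and 0.47%). Liver and fat share no library, and the overlaps were not tested.

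Cyb5r4, Eif4a2 and Zfp949 were listed for all 3 fat tissues and liver, each in 1 direction. Zfp949 had a log2 fold of 1.01 ± 0.13 (SE) in liver, against 1.55 ± 0.09 in male inguinal fat and 1.61 ± 0.19 in female inguinal fat. Its liver level was 230 ± 30.0 in AKO and 112 ± 14.3 in WT, and its male inguinal level 608 ± 28.2 in AKO and 208 ± 25.0 in WT (normalized counts, SD, n = 4 each, scaled within each tissue). The rise was smaller in liver than in male inguinal fat by a tissue by genotype term in edgeR (difference -0.55 ± 0.15 SE, adjusted p = 0.00878 over 9 such tests), though not without WT liver library 2 (-0.44 ± 0.16 SE, edgeR adjusted p = 0.062). Against female inguinal fat the difference was -0.61 ± 0.25 and did not pass (edgeR adjusted p = 0.0894). Eif4a2 had log2 folds of 0.53 ± 0.07 in liver, 0.55 ± 0.07 in male inguinal fat and 0.56 ± 0.07 in female inguinal fat. Its differences of -0.01 ± 0.10 and -0.02 ± 0.08 did not pass, which does not show that the tissues responded alike.

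Elovl5 was the 1 shared gene with opposite directions. In male inguinal fat it had 2083 ± 44.0 normalized counts in AKO and 1756 ± 121 in WT, a rise with a log2 fold of 0.24 ± 0.06, while in liver it fell. The difference, liver minus male inguinal fat, was -1.04 ± 0.16 (edgeR adjusted p = 2.59e-05 over 9 tests), and it ran from -1.15 to -0.95 when single liver libraries were left out. These tests cover only genes already called in both tissues, so a gene called in opposite directions had to differ, and the p-value is no independent evidence. Their spread rests on the shared genes alone, 4 for male and 5 for female inguinal fat. The tests of Cyb5r4 and Abcd3 in liver against inguinal fat gave edgeR adjusted p from 0.47 to 0.897. In perigonadal fat, where values come from the authors' deposited table, Hsd17b4 had a log2 fold of -0.45 ± 0.10, Plin2 -0.23 ± 0.08 and 1810011O10Rik -0.52 ± 0.18. The authors' deposited table for liver has -0.17 ± 0.04 for Hsd17b4, -0.48 ± 0.10 for Plin2 and -0.84 ± 0.14 for 1810011O10Rik. These 3 were lower in both tissues, though Hsd17b4 in liver was higher with TMM scaling or DESeq2 size factors computed over the called genes. Their differences were not tested for want of perigonadal counts used here.

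**Figure D5:**
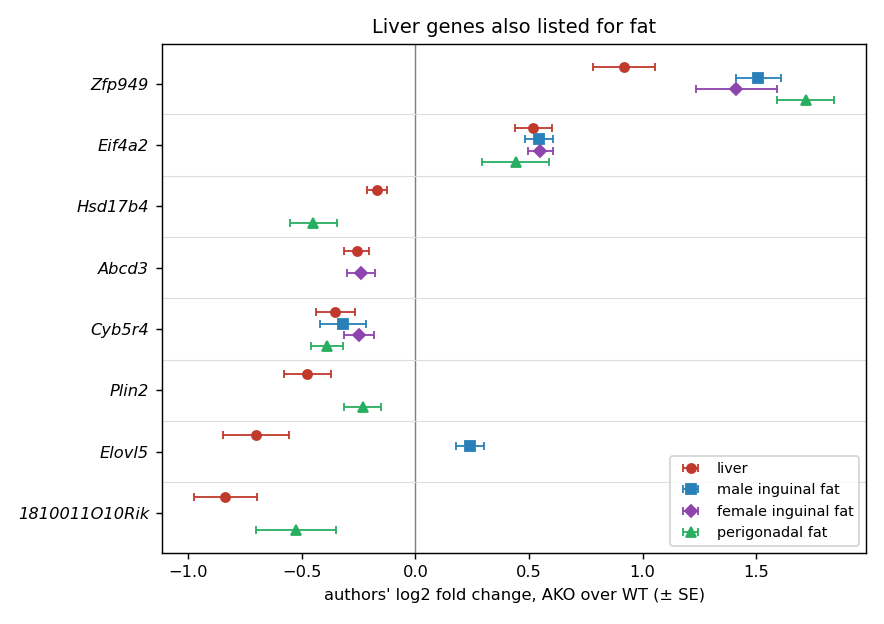
The authors' log2 fold changes of AKO over WT, with standard errors, for 8 of the 9 liver genes also listed for fat, in liver (circles), male inguinal fat (squares), female inguinal fat (diamonds) and perigonadal fat (triangles). Elovl5 stands on opposite sides of 0 in liver and male inguinal fat, Zfp949 lies nearest to 0 in liver, and the values of Eif4a2 lie together. Hsd17b4 and Abcd3 change sign in liver with TMM scaling, which was computed over genes chosen as changed.

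Among the libraries, AKO 4 was the lowest AKO library for 11 of the 25 lower genes with counts, and WT 4 the highest WT library for 10. The coefficient of variation was larger in AKO for 22 of the 34 genes and larger in WT for 12.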

How the data were processed

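Per the labels' protocols, poly(A) RNA was prepared with Trizol, RNeasy columns and a stranded TruSeq kit. STAR, DESeq2 and mm10 are named in the submitters' processing notes; the read counter, strand setting and annotation were not given in the sources used here. The authors deposited raw whole-number counts per library, held here for listed genes of liver and inguinal fat. Per the file headers they also deposited, for each comparison, the mean normalized count (a signal), the log2 fold change and the adjusted p-value. Liver counts contained 3 repeated rows, which were dropped. Groups and replicate numbers are the labels', with 1 animal number per library and 4 libraries per group.

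Size factors of the authors were recovered by least squares from the counts and deposited means (largest misfit 0.298%) and used as offsets in edgeR 4.0.16 (quasi-likelihood, R 4.3.3), AKO over WT, with no filter and Benjamini-Hochberg adjustment at 0.05. Only 34 genes inform its spread in liver. The number of liver genes tested was estimated from 13 genes (11235 to 12155 per gene). It used their adjusted p and a p computed by normal approximation from the rounded log2 fold over its rounded SE. The tissue by genotype test was added after seeing the data. It was fitted on shared genes alone, so 4 genes inform its spread for male inguinal fat and 5 for female inguinal fat. The edgeR fit of the liver genes was also run on simulated counts that mixed genes with and without a fold. The real genes were all called ones, so that run says little about the fit here. Alternatives were other scalings, DESeq2 1.42.0, a filter at a mean of 50, replicates left out and a replicate block. Values per library are given for the 10 largest rises and falls and for list members; others were added to describe a group. Members and gene lists were chosen with earlier results of these data known. Results of some genes are not reported here. Positions are from GENCODE M21.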

Additional observations from a re-analysis of the deposited data

Results flagged for a closer look

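Kng2 in WT liver 1 had 5590 normalized counts and stood apart from the other WT livers, which ran from 4730 to 4753. Slc16a11 in AKO liver 2 had 237.4, against 200 to 206 in the other AKO livers, and Zfp949 in AKO liver 3 had 275.1, against 213 to 216. The size factor of WT liver 2 was 2.203, and the other WT livers ran from 0.603 to 0.784. Each was picked out because the gap to its neighbour took up most of its group's range, and chance alone picks out about 1 in 20 groups; 70 groups of 4 were looked at.

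The response differed between tissues for 2 genes by a tissue by genotype term. The log2 fold change of Elovl5, liver minus male inguinal fat, was -1.037, and that of Zfp949 was -0.5482. Only genes already called in both tissues were compared. The Zfp949 difference did not pass without WT liver 2 (edgeR adjusted p = 0.062), nor against female inguinal fat (edgeR adjusted p = 0.0894).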

How the results depend on the processing

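All 34 calls kept their direction with DESeq2's test (34), when any single replicate was left out (34 to 34) and, for the 31 genes with a mean of at least 50, under that filter, which the deposit of called genes alone favours. With TMM scaling 18 genes were called, and with DESeq2 size factors over the 34 genes also 18 (10 higher, 8 lower; 55.6% higher, against 26.5%), and the median fold moved by 0.32 on the log2 scale, since these scalings level genes chosen as changed. Signs turned, with TMM and DESeq2 factors in this order, for Abcd3 at 0.057 and 0.061, Gas2 at 0.0082 and 0.011, Hsd17b4 at 0.147 and 0.149, Slc25a10 at 0.0047 and 0.0078, and Uroc1 at 0.095 and 0.097. Of these only Hsd17b4 was called in the turned direction (edgeR adjusted p = 0.0168 and 0.0407), and it counts among the 10 higher. With the table's total as library size 33 were called, without Tenc1, and the median fold moved by -0.11. Adjusted over the genes the authors tested, edgeR called 3 (3 higher, 0 lower) and DESeq2, added after seeing the data, 23 (8 higher, 15 lower). Without the fourth replicates 33 were called (not Hsd17b4), and the difference in size factors turned to -0.209. That difference ran from -0.140 to 0.393 with single libraries left out, the highest without WT replicate 2 (exact permutation p = 0.0571, the smallest that 4 against 3 allow). The replicate block called 34. Deviations of same-numbered libraries correlated at -0.38, 0.08, 0.16 and -0.58 over 34 genes. No AKO library correlated best with the WT library of its own number. Of the WT libraries only WT 3 correlated best with the AKO library of its own number. Within each replicate number the animal numbers of the AKO and WT livers were adjacent. Correlations over genes chosen as changed, with 4 libraries per group, cannot decide whether the animals were paired. The depth of whole libraries is unknown, and genes that were not called cannot be examined.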
